A study of Mus musculus with 4 samples.

Results

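The hexokinase family was described here as 5 genes of mouse small intestinal (SI) organoids, namely Hk1, Hk2, Hk3 and Hkdc1, which encode hexokinases, and Gckr, which encodes the glucokinase regulatory protein. They were taken by symbol from the 55487 genes of the deposited tables, and all 5 were found. SI organoids are clusters of intestinal epithelium grown from crypts in a gel. They carried a lentivirus for a miRNA mimic control (libraries 1 and 2) or for the miR-181a-5p mimic (libraries 3 and 4), so that both groups had undergone infection and selection with puromycin at 2 µg/ml. Bulk RNA sequencing gave 1 library for each of the 4 samples, with 31104884 to 38111731 expected counts per library. No source used here gives the age, sex or strain of the mice, or states whether the 2 libraries within a group were separate cultures, so the p-values measure the spread between these libraries. The comparison asked whether hexokinase mRNAs differed between organoids with the mimic and organoids with the mimic control, since the study links miR-181a-5p to HK1. That link was to HK1 protein, which the study found lower with an inhibitor of miR-181a-5p. Here mRNA was measured, and with the mimic, so the 2 results are not like for like. The mimic itself was not measured in these tables.

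Hexokinases transfer a phosphate from ATP to glucose as it enters the cell. The product, glucose 6-phosphate, is held inside the cell and feeds glycolysis, glycogen synthesis, the pentose phosphate pathway and the synthesis of amino sugars. HK1 is present in most tissues and, like HK2, can bind the outer mitochondrial membrane, HK2 is the form raised in many growing and tumor cells, HK3 is known from leukocytes, and HKDC1 is the family member described last. The protein from Gckr binds glucokinase, the liver and islet hexokinase, and holds it inactive.

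The miR-181 family shares 1 seed, the stretch at bases 2 to 8 with which a miRNA pairs to mRNA. The mature sequences are shown because the mimic supplied the first of them. They were taken from RefSeq on GRCm38.p6, with the seed in capitals.
mmu-miR-181a-5p: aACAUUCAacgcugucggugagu
mmu-miR-181b-5p: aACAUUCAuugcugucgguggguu
mmu-miR-181c-5p: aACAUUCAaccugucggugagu
mmu-miR-181d-5p: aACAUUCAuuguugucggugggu

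The mRNA letters that pair with this seed are TGAATGT (a 7mer-m8 site), and TGAATGTA is the 8mer. Neither these letters nor the shorter 6mer, GAATGT, were present in the 3′ UTR of the longest complete coding transcript of any of the 5 genes. Those 3′ UTRs were 1054 bases long in Hk1, 2285 in Hk2, 186 in Hk3, 638 in Hkdc1 and 223 in Gckr. Among 13005 tested genes with a complete coding transcript, 17.8% held a 7mer-m8 site and 35.0% a 6mer in the 3′ UTR, searched on the transcript strand.

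In the coding sequences, Hk1 held 1 8mer, a match present in 3.03% of the coding sequences of tested genes. Hk3 held 1 7mer-m8 site, as did 12.5% of them (8mers included). Hk1 and Hkdc1 also each held the 6mer followed by A, at base 2240 and base 2231 of the coding sequence, and a 6mer of any kind was present in 32.8%. These coding stretches are shown, on the transcript strand with the match in capitals. They are the only places where the longest complete coding transcripts of the 5 genes carry seed letters. The coordinates are on GRCm38, all 4 stretches lie on the minus strand in coding exons, and that of Hk3 spans an exon junction.
Hk1 at chr10:62271620-62271649: gcctagaccaccTGAATGTAaccgtgggcg
Hk1 at chr10:62274565-62274594: agatgatcagtgGAATGTAcctgggtgaga
Hkdc1 at chr10:62391429-62391458: aaatgaccagtgGAATGTAcctgggggaga
Hk3 at chr13:55008747-55008954: aggcagtggagcTGAATGTggttgccattg

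A match of letters describes the sequence and is not evidence that the miRNA binds there.

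The 4 hexokinase genes encode proteins of similar length. The coding sequences, translated from the GENCODE annotation, gave 918 amino acids for Hk1, 917 for Hk2, 922 for Hk3 and 915 for Hkdc1, against 623 for Gckr. Hk1 and Hk2 were the most alike, with 72.2% identical residues, and Hk1 and Hkdc1 followed with 70.7%. Hk3 was the most distant, with 52.0% to 56.0% identity to the others. Within each hexokinase, the first part of the protein aligned to the second with 46.6% to 58.3% identity when the chain was split at its midpoint, the repeat for which these enzymes are known. Gckr encodes no hexokinase, and its global alignments to the hexokinases gave 23.2% to 24.6%.

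These likenesses did not extend to runs as long as a sequencing read. The longest identical runs between the longest transcripts are given because reads that lie within such a run cannot be assigned to 1 gene, and both were shorter than a read of 100 cycles.
Hk1 and Hk2 (27 bases): agcaatgcctgctacatggaggagatg
Hk1 and Hkdc1 (26 bases): gacacagtggggaccatgatgacctg

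No annotated transcript of another gene shared a run of 50 bases with Hk2, Hk3, Hkdc1 or Gckr. Hk1 shared such runs, on the opposite strand, with Hk1os, an antisense gene within its limits.

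Hkdc1 was the most abundant hexokinase mRNA in the SI organoids, in every library. Levels were compared between genes on the TPM scale, which divides by transcript length and sets every library to the same total. Hkdc1 stood at 40.53 and 62.05 TPM in the control libraries and at 54.37 and 59.44 TPM in the mimic libraries. Hk1 stood at 10.82 and 20.14 TPM in control libraries and at 12.02 and 23.61 TPM in mimic libraries. Hk2 stood at 11.04 and 17.17 TPM in control libraries and at 19.13 and 17.95 TPM in mimic libraries. Each Hkdc1 value lay above each Hk1 and Hk2 value, while Hk1 and Hk2 could not be ranked, since Hk2 was the higher in libraries 1 and 3 and Hk1 in libraries 2 and 4. Gckr reached 0.39 and 0.46 TPM in control libraries and 0.28 and 0.08 TPM in mimic libraries. Hk3 reached 0.06 and 0.07 TPM in control libraries and 0.07 and 0.08 TPM in mimic libraries. Both were far below the other members, and in library 4 they were level.

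**Figure D1:**
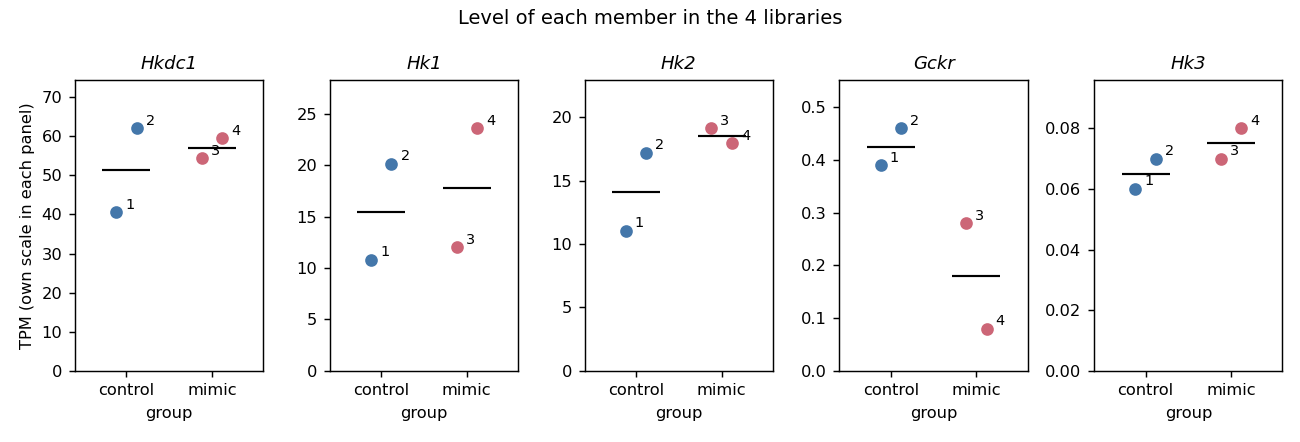
TPM (y axis, own scale from 0 in each panel) of the 5 genes in the 4 libraries, by group (x axis), with the library number beside each point and the group mean as a line. The points of the groups interleave for Hkdc1 (40.53 to 62.05 TPM) and Hk1 (10.82 to 23.61 TPM), and for Gckr both mimic libraries (0.28 and 0.08 TPM) lie below both controls.

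The hexokinase pool was therefore mostly Hkdc1. Summed over Hk1, Hk2, Hk3 and Hkdc1, the TPM came to 62.5 and 99.4 in control libraries and to 85.6 and 101 in mimic libraries. The mean sum was 15.3% higher with the mimic (80.9 ± 26.1 against 93.3 ± 11.0, SD, n = 2 each), a difference smaller than the spread between the control libraries. Without control library 2 the sum was 49.5% higher with the mimic, and without control library 1 the difference turned to -6.13%. The cause was not tested. Hkdc1 made up 64.9% and 62.4% of the sum in control libraries and 63.5% and 58.8% in mimic libraries. Hk1 made up 17.3% and 20.3% in control libraries and 14.0% and 23.4% in mimic libraries. Hk2 made up 17.7% and 17.3% in control libraries and 22.4% and 17.8% in mimic libraries. The Hk1 and Hkdc1 shares overlapped between the groups, whereas both Hk2 shares of the mimic libraries lay above those of the controls, by little in library 4. This depended on the scale, since in CPM the Hk2 shares overlapped (26.0% and 26.3% against 32.6% and 26.2%) and both Hkdc1 shares of the mimic libraries (53.8% and 50.7%) lay below those of the controls (55.9% and 54.0%). These sums and shares were not tested, and an exact permutation test of 2 against 2 libraries could not go below 0.333 (two-sided).

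**Figure D2:**
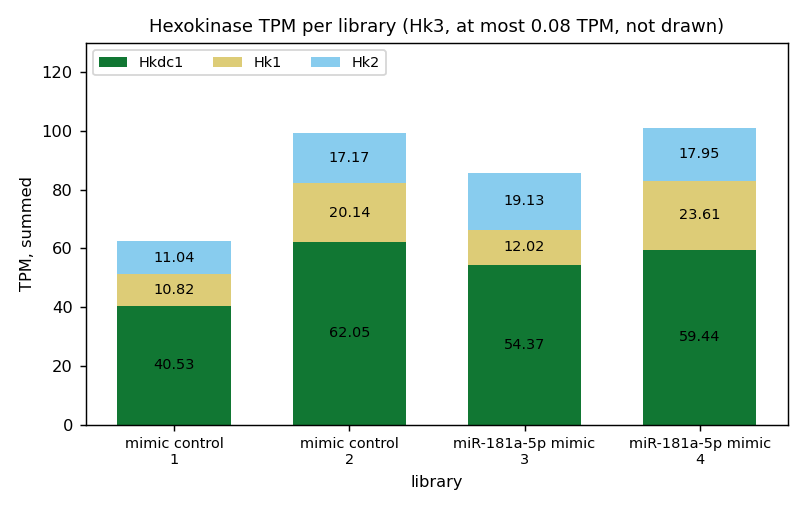
TPM (y axis, from 0) of Hkdc1, Hk1 and Hk2 stacked for each library (x axis), with the value printed in each segment; Hk3 is too low to draw. Control library 1 has the lowest sum, 62.5 TPM, and Hkdc1 forms the largest segment in all 4 bars.

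Next, the mimic group was compared with the control group in all 17155 genes that passed the filter on low counts, with edgeR's quasi-likelihood test on the rounded expected counts and Benjamini-Hochberg adjustment over those genes. Among them, 612 genes (3.57%) had an adjusted p under 0.05, of which 220 (1.28%) were higher and 392 (2.29%) lower with the mimic, and 354 (2.06%) also differed by at least 2-fold. Of the 5 members, 4 passed the filter and none of the 4 had an adjusted p under 0.05. By DESeq2, which called 8.92% of the genes to which it gave an adjusted p, none of the 3 members with one passed either. By edgeR's exact test, which called 10.4% of all genes tested, 1 member, Gckr, passed. At an unadjusted p under 0.05 in the quasi-likelihood test, which 24.8% of all genes had, Gckr was again the 1 member. Fold changes below are log2 values, mimic minus control, with their standard errors (SE), and the median over all genes tested was -0.01.

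The mRNA of Hk1, whose protein the study examined downstream of miR-181a-5p, did not differ between the groups beyond the spread of its libraries. Hk1 (ENSMUSG00000037012) spans chr10:62268855-62379908 on the minus strand of GRCm38, and its longest coding transcript has 18 exons. Its expected counts were 1208.94 and 1790.98 in control libraries and 1082 and 2277 in mimic libraries. Normalized for depth, these were 31.5 and 57.8 CPM (counts scaled to the size of the library) in control libraries and 34.5 and 64.0 CPM in mimic libraries. Each group thus held 1 low and 1 high library, and the groups overlapped. The log2 fold change of Hk1 was 0.14 (SE 0.33, adjusted p = 0.822 by edgeR). The 95% interval ran from a fold of 0.646 to a fold of 1.89, so changes in either direction within these limits were not excluded. The sign rested on single libraries, since the value was -0.24 without control library 1 and -0.37 without mimic library 4. It was 0.65 without control library 2, and it did not pass the threshold under any of these.

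Hk1 stood out for the distance between libraries of 1 group. Library 2 held 1.83 times the Hk1 CPM of library 1, and library 4 held 1.85 times that of library 3. Among 9369 genes with a mean of at least 10 CPM, 99.0% had a smaller gap between the controls and 99.4% a smaller gap between the mimic libraries. Gaps at least as large as those of Hk1 in both groups were found in 0.139% of these genes. The genes whose levels over the 4 libraries came nearest to those of Hk1 were Bnip3, Selenbp1 and Ak4, by Euclidean distance between centered log2 CPM (0.24, 0.28 and 0.29). Bnip3 encodes a mitochondrial protein of hypoxia and mitophagy, Ak4 a mitochondrial adenylate kinase and Selenbp1 a selenium-binding protein. Bnip3, for example, measured 107 and 160 CPM in control libraries and 114 and 191 CPM in mimic libraries.

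The enzymes downstream of hexokinase followed the same division of libraries. Of 18 tested genes of glycolysis after the hexokinase step, 13 (72.2%) were higher in library 2 than in library 1 and also higher in library 4 than in library 3, compared with 22.2% of all genes tested. Gapdh, the most abundant of them, stood at 2063 and 3052 TPM in control libraries and at 2044 and 2797 TPM in mimic libraries. Its ratios were 1.43 between the controls and 1.32 between the mimic libraries, smaller than those of Hk1. Genes of 1 pathway are not independent, and the 4 libraries are shared by all of them, so this is a description. The cause was not tested.

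**Figure D3:**
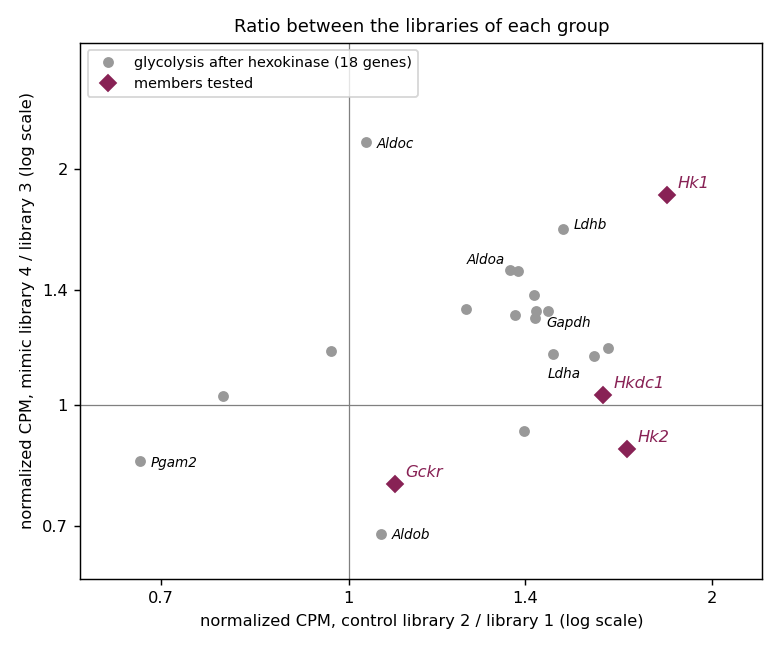
Ratio of normalized CPM between control libraries 2 and 1 (x axis) and between mimic libraries 4 and 3 (y axis), both on log scales, for the 4 tested members (diamonds) and 18 genes of glycolysis after hexokinase (circles, some named). Hk1 lies at 1.83 and 1.85, the upper right, while Hk2 and Hkdc1 show a ratio over 1.6 between the controls and near 1 between the mimic libraries.

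Hk2, whose protein shares the mitochondrial docking of HK1, did not pass this test either. Hk2 (ENSMUSG00000000628) lies at chr6:82725025-82774454 on the minus strand. Its counts were 1736 and 2386 in control libraries and 2589 and 2585 in mimic libraries, or 45.3 and 77.0 CPM against 82.7 and 72.6 CPM. Control library 1 was low and the other 3 libraries lay close together, so the groups overlapped in CPM, although in TPM both mimic libraries lay above both controls. The log2 fold change of Hk2 was 0.35 (SE 0.22, adjusted p = 0.368 by edgeR), with a 95% interval from -0.17 to 0.86. The estimate depended on the controls. Without control library 2 the value was 0.78, and without control library 1 it was 0.01. Me1 (malic enzyme), Hps3 and 2010106E10Rik came nearest to Hk2 over the 4 libraries, at distances of 0.08, 0.08 and 0.10, and measured, for Me1, 33.5 and 60.5 CPM in control libraries and 64.9 and 54.3 CPM in mimic libraries.

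Hkdc1, the most abundant member, gave a similar picture. Hkdc1 (ENSMUSG00000020080) lies at chr10:62383137-62422491 on the minus strand, 3229 bases from Hk1 and next to it. Its counts were 3733 and 4896 in control libraries and 4279 and 5011 in mimic libraries, or 97.4 and 158 CPM against 137 and 141 CPM. Both mimic libraries lay between the controls. The log2 fold change of Hkdc1 was 0.12 (SE 0.20, adjusted p = 0.747 by edgeR), and its 95% interval ran from a fold of 0.787 to a fold of 1.502. Without control library 1 the value turned to -0.19, and without control library 2 it was 0.52. Slc16a5, a monocarboxylate transporter family gene, Tm6sf2 and Exoc3l4 were nearest to Hkdc1, at distances of 0.04, 0.06 and 0.06. Although Hk1 and Hkdc1 are neighbors, their ratio was not fixed, and Hkdc1 TPM was 3.75, 3.08, 4.52 and 2.52 times Hk1 TPM in libraries 1 to 4.

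Hk3 was near the limit of detection. Hk3 (ENSMUSG00000025877) lies at chr13:55005985-55021385 on the minus strand, and it was left out of the test by the filter. It had 1 count in each of libraries 1, 2 and 3 and 2 counts in library 4. Over each group this was 0.0288 CPM in the controls (exact Poisson 95% interval 0.00349 to 0.104) and 0.0448 CPM with the mimic (0.00925 to 0.131), intervals that cover counting error only. A difference was not detectable at this depth. Leukocyte and myeloid markers were also at or near 0. Of 10 listed markers, 3 (S100a8, S100a9 and Tyrobp) had no count in any library, and their summed TPM was 3.42 to 3.70 over the 4 libraries, with Cd68 the highest at 1.70 to 2.04 TPM and Itgam next at 0.38 to 1.30 TPM.

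Gckr had the largest fold change of the tested members, and it was lower in both mimic libraries. Gckr (ENSMUSG00000059434) spans chr5:31297443-31327314 on the plus strand. Its counts were 34 and 30 in control libraries and 10 and 9 in mimic libraries, or 0.887 and 0.968 CPM against 0.319 and 0.253 CPM. The groups did not overlap, which held for 58.4% of all genes tested. The log2 fold change of Gckr was -1.69 (SE 0.39, 95% interval -2.60 to -0.77), a level 3.22-fold lower with the mimic. Its adjusted p was 0.0621 by the quasi-likelihood test (unadjusted p = 0.00301), which did not pass the threshold. By edgeR's exact test the adjusted p was 0.00467, and DESeq2 gave none for a gene this low (unadjusted p = 0.0215). The value ranged from -1.85 to -1.52 as each library in turn was left out.

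The low level of Gckr limits what these counts can show, since a few reads set each value. Adh1, C1qtnf12 and Reg3a were the genes nearest to Gckr over the libraries, at distances of 0.20, 0.39 and 0.40, and Adh1, an alcohol and retinol dehydrogenase, stood at 203 and 250 CPM in control libraries and at 89.7 and 64.2 CPM in mimic libraries. Because Gckr is known from liver, 6 hepatocyte markers were read beside it. Their summed TPM was 69.7 and 48.1 in control libraries and 21.2 and 38.1 in mimic libraries, nearly all from Ttr (transthyretin), which had a log2 fold change of -1.10 (adjusted p = 0.0599 by edgeR). Alb was at 0.10 to 0.26 TPM in all 4 libraries. None of the 3 markers tested passed, and their part in the Gckr result was not tested. In bulk RNA, fewer cells of a type and less RNA per cell cannot be told apart.

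**Figure D4:**
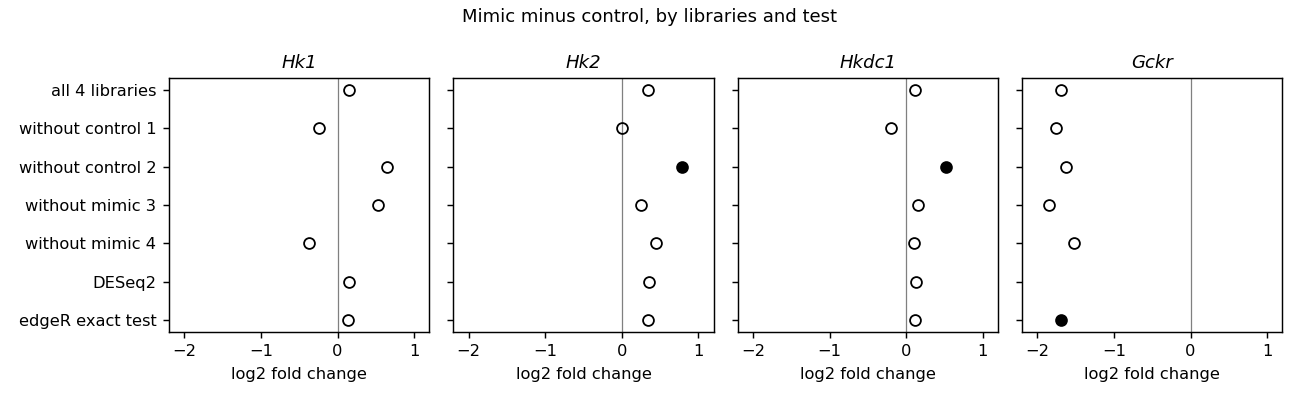
Log2 fold change, mimic minus control (x axis), of the 4 tested members. Rows give all 4 libraries, each library left out and 2 other count tests. A filled point has an adjusted p under 0.05. Gckr has no DESeq2 point, since DESeq2 gave it no adjusted p. Hk1 and Hkdc1 lie on both sides of 0, and Gckr stays between -1.85 and -1.52. Hk2 and Hkdc1 are highest without control library 2 (0.78 and 0.52), the fit that called the most genes of all. Their points are filled in that fit only.

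The count and the TPM of a gene together give the mean length of the transcripts to which its reads were assigned. This length was scaled on 326 genes with 1 annotated transcript, 90% of which fell within 0.981 to 1.02 times their annotated length. For Hk1 it was 3507 to 3607 bases over the 4 libraries, against 4278 bases for the longest transcript. For Hk2 it was 4969 bases in control library 1 and 5273 to 5504 bases in the others, against 5513 bases for the longest transcript. For Hkdc1 it was 2911 bases in control library 1 and 3066 to 3153 bases in the others, against 3517 bases. Thus the library with the lowest Hk2 and Hkdc1 levels also had reads assigned to shorter transcripts of both genes, which was not seen for Hk1. For Hk3, it was 527 to 935 bases, far below the 3219 bases of the longest transcript. For Gckr it was 2755 and 2583 bases in the controls but 1392 and 4207 bases with the mimic. Rounding of the TPM alone allows 3960 to 4488 bases for the last value. With the lengths of the mimic libraries, 10 and 9 counts became 0.28 and 0.08 TPM. The longest complete coding transcript of Gckr has 2272 bases and its longest annotated transcript 4014, so part of its reads were assigned beyond the coding transcript.

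The surroundings of the members were measured as well. Of 11 other genes that overlap a member or are the nearest tested gene beside one, none passed an adjusted p under 0.05 (edgeR). The groups did not overlap for 7 of the 11, against 58.4% of all genes tested. Hk1os, antisense within Hk1, had expected counts of 10.06 and 9.02 in control libraries and 16 and 17 in mimic libraries (log2 fold change 0.84, SE 0.42, adjusted p = 0.262 by edgeR). The fractions of Hk1os and Hk1 summed to whole reads, 1219 in library 1 and 1800 in library 2, so a few reads were divided between these genes. Gm17034, antisense within Hk2, had counts of 23 and 14 in control libraries and 47 and 37 in mimic libraries (log2 fold change 1.24, SE 0.37, adjusted p = 0.106 by edgeR). Strand use in the counting was not given in the sources used here, and without it reads from the stretches that Hk1 and Hk1os share cannot be told apart. Gm17034 shared no run of 50 bases with an annotated Hk2 transcript. Unc5a meets the end of Hk3 and had 68 to 141 counts. Of the nearest tested genes, Fndc4, 1363 bases from Gckr, had counts of 26 and 15 in control libraries and 5 and 14 in mimic libraries (log2 fold change -1.05, adjusted p = 0.244 by edgeR). Supv3l1 beside Hkdc1 had a log2 fold change of 0.32, and Tspan15 beside Hk1 one of -0.07. Pole4 and Dok1 beside Hk2 had values of 0.19 and 0.31, Tspan17 and Uimc1 beside Hk3 had 0.38 and -0.07, and Zfp512 beside Gckr had 0.02.

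The genes around the hexokinase step were then read from 6 lists, which cover the supply of hexoses, the reverse reaction, other sugar kinases, the fates of glucose 6-phosphate and the control of hexokinase. The lists were chosen with earlier results of these data known, so their counts are descriptions only. Among all genes tested, 3.57% passed. Of the transporters that supply hexoses, 13 of 17 were tested, and 1 was higher and none lower. This was Slc2a5, the fructose transporter GLUT5. It measured 11.4 and 18.2 TPM in control libraries and 63.8 and 52.9 TPM in mimic libraries, with a log2 fold change of 2.06 (SE 0.25, adjusted p = 0.0103 by edgeR). Both mimic libraries thus lay well above both controls. Slc5a1, the sodium-glucose transporter SGLT1 and the most abundant of the list, stood at 163 and 218 TPM in control libraries and at 197 and 215 TPM in mimic libraries (adjusted p = 0.860 by edgeR). The median log2 fold change of the list was -0.03.

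The reverse reaction and the kinases of other sugars came next. Glucose 6-phosphatase removes the phosphate that hexokinase adds, and 5 of 6 genes of its system were tested. G6pc, its catalytic subunit, measured 13.8 and 14.6 TPM in control libraries and 31.3 and 23.6 TPM in mimic libraries. It was the 1 gene that rose, with a log2 fold change of 0.90 (SE 0.17, adjusted p = 0.0403 by edgeR). Slc37a4, which carries glucose 6-phosphate into the endoplasmic reticulum and was the most abundant of the list, had 53.4 and 51.4 TPM in control libraries and 46.7 and 47.5 TPM in mimic libraries (adjusted p = 0.224 by edgeR). None passed in the lower direction, and the list's median log2 fold change was -0.14. Of 14 other sugar kinases, 13 were tested and none passed by the quasi-likelihood test, with a median of -0.06. Among them, Khk, the fructose kinase, was the most abundant at 235 and 251 TPM in control libraries and 253 and 235 TPM in mimic libraries. It was above the summed hexokinases in each library.

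Glucose 6-phosphate then enters glycolysis or other pathways. Of 19 genes of glycolysis after hexokinase, 18 were tested, none was higher and 1 was lower, with a median log2 fold change of -0.01. This was Pfkm, a phosphofructokinase, at 21.7 and 21.2 TPM in control libraries and 13.2 and 17.1 TPM in mimic libraries (log2 fold change -0.56, SE 0.12, adjusted p = 0.0474 by edgeR). Of 18 genes of the other fates of glucose 6-phosphate, 16 were tested, 1 was higher and none lower, and the median was 0.18. Gnpnat1, an enzyme of amino sugar synthesis, measured 19.8 and 21.7 TPM in control libraries and 33.2 and 26.1 TPM in mimic libraries (log2 fold change 0.57, SE 0.12, adjusted p = 0.0488 by edgeR). Pgd, of the pentose phosphate pathway and the most abundant of the list, had 109 and 157 TPM in control libraries and 234 and 219 TPM in mimic libraries, a log2 fold change of 0.73 that did not pass (adjusted p = 0.0636 by edgeR).

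Genes that dock or regulate hexokinase, or set glucose use more widely, formed the last list. All 20 were tested, 4 were lower and none higher, against 2.29% lower among all genes tested, and the median log2 fold change was 0.01. As the list was chosen with earlier results of these data known, this count does not test the list. Txnip, which encodes a glucose-induced inhibitor of glucose uptake and was the most abundant of the list, fell from 600 and 486 TPM in the controls to 218 and 277 TPM with the mimic. Its log2 fold change was -1.27 (SE 0.15, adjusted p = 0.0101 by edgeR). Epas1, the hypoxia-inducible factor HIF-2α, stood at 10.6 and 11.4 TPM in control libraries and at 5.60 and 7.30 TPM in mimic libraries (log2 fold change -0.90, SE 0.14, adjusted p = 0.0251 by edgeR). Both mimic libraries lay below both controls in each case. Ppargc1a, a coactivator of mitochondrial genes, went from 9.29 and 11.0 TPM to 5.09 and 5.20 TPM (log2 fold change -0.76, SE 0.12, adjusted p = 0.0259 by edgeR). Pfkfb4, which sets the level of the phosphofructokinase activator fructose 2,6-bisphosphate, went from 38.1 and 28.2 TPM to 19.5 and 21.2 TPM (log2 fold change -0.69, SE 0.14, adjusted p = 0.0464 by edgeR). The channels Vdac1, Vdac2 and Vdac3, to which HK1 and HK2 dock, had log2 fold changes of -0.07, 0.07 and 0.12, and none of the 3 passed; they are named beyond the rule for their role. Without mimic library 3, G6pc, Pfkm, Gnpnat1 and Pfkfb4 no longer passed, at adjusted p of 0.0829, 0.232, 0.216 and 0.0891 by edgeR, while Slc2a5, Txnip, Epas1 and Ppargc1a passed with any 1 library left out. Pfkm, Gnpnat1 and Pfkfb4 also missed it without control library 1 (0.0702, 0.0951 and 0.0584), and Gnpnat1 and Pfkfb4 without mimic library 4 (0.0572 and 0.0579).

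**Figure D5:**
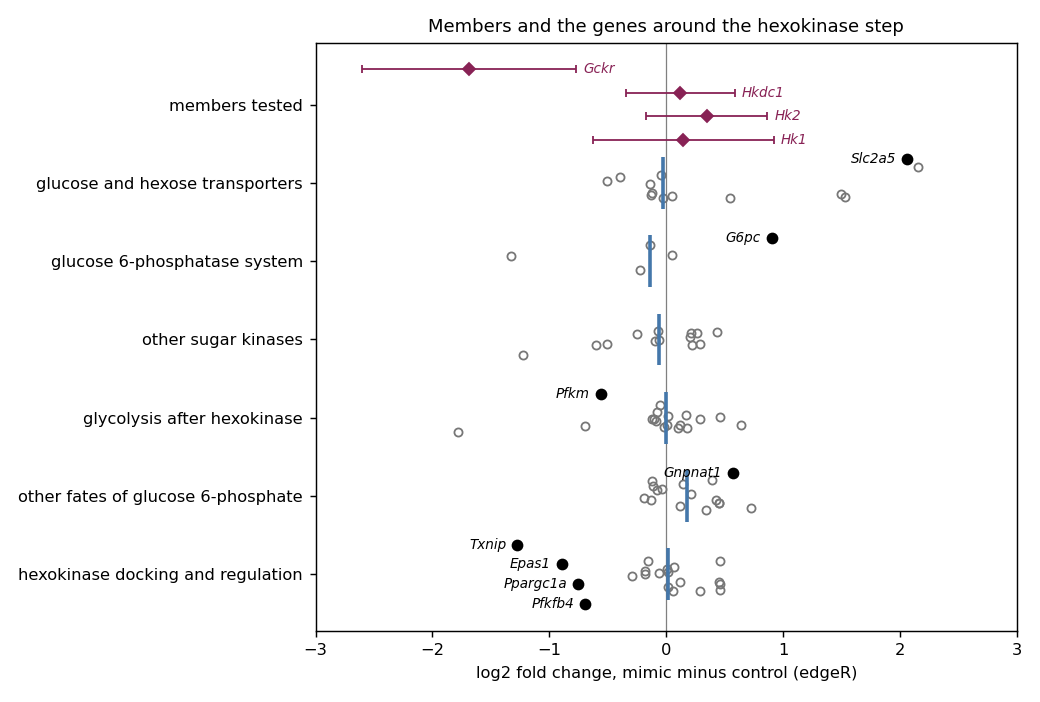
Log2 fold change, mimic minus control (x axis), of the 4 tested members with 95% intervals (diamonds and bars, top) and of the tested genes of the 6 lists (circles, spread vertically for legibility). Filled circles, with names, have an adjusted p under 0.05, and a bar marks the median of each list, from -0.14 to 0.18, while the intervals of Hk1, Hk2 and Hkdc1 include 0.

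The labels give intestinal epithelium, and its markers were present. Summed TPM of 9 enterocyte markers was 2973 and 4071 in control libraries and 2410 and 2432 in mimic libraries, and 1 of the 9 was lower (Anpep). Of 6 stem cell markers 1 was lower (Lgr5), of 6 proliferation markers 1 was higher (Mcm2), and of 6 goblet cell markers 1 was lower (Spink4). None of the tested Paneth, enteroendocrine or tuft cell markers passed. Mesenchymal markers summed to 0.52 to 0.72 TPM, with Col1a2, Col3a1 and Dcn at 0. The part of cell makeup in the levels of the members was not tested.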

How the data were processed

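Total RNA of 4 SI organoid samples was sequenced as single reads of 100 cycles. Per the labels and the study's methods, the authors trimmed reads with Trimmomatic and quantified them with RSEM against GRCm38 transcripts (versions and annotation release not given in the sources used here). The labels name poly(A) enrichment and the study's methods ribosomal RNA depletion. The authors deposited RSEM expected counts and TPM per gene, and 3 further columns of these tables match no sample and were not used. Samples were grouped by the treatment label.

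After rounding to whole numbers, the expected counts were tested in R 4.3.3 with edgeR 4.0.16 (filterByExpr at a minimum count of 10, TMM factors, glmQLFit in its current form and glmQLFTest, Benjamini-Hochberg over 17155 genes), with no covariates. CPM are TMM-normalized. The design, 2 against 2 libraries, followed the study's use of edgeR, though the study does not name its form of test. Intervals are at 95%. Limma 3.58.1 on log2(TPM + 1) and log2(TPM + 0.1), DESeq2 1.42.0, edgeR's exact test, other normalizations and filters, and leaving out each library were alternatives, as was the legacy form of glmQLFit, added after seeing the data, and each test was tried on simulated data. In each group the 2 libraries differed by more than sampling noise (chi-square per degree of freedom 30.4 and 16.5). Gene symbols, coordinates and transcript sequences were read from the mouse GENCODE annotation, release 21, and mature miRNAs from RefSeq. Translated coding sequences, aligned with Biopython 1.88, stood in for the RefSeq proteins that had been planned, and no residues are printed.

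The genes named are the 5 members. To these were added, in each list, each gene at an adjusted p under 0.05 and the gene with the highest mean TPM, the genes overlapping or nearest to a member, and the 3 genes with the nearest profile and a mean of at least 10 CPM. The members and lists were chosen with earlier results of these data known. Of the sugar kinase list, 1 symbol was not found.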

Additional observations from a re-analysis of the deposited data

How the results depend on the processing

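With each library left out in turn, the log2 fold change ranged from -0.37 to 0.65 for Hk1, from 0.0055 to 0.78 for Hk2, from -0.19 to 0.52 for Hkdc1 and from -1.85 to -1.52 for Gckr. Hk1 was reversed without control library 1 (-0.24) and without mimic library 4 (-0.37), and Hkdc1 without control library 1 (-0.19). Hk2 and Hkdc1 were highest without control library 2 (0.78 and 0.52), the fit that also called the most genes of all. Only in that fit did Hk2 or Hkdc1 fall under the adjusted p threshold. In these fits the lone library of a group is assumed to vary like the other group, so this is not read as a difference. The cause of these shifts was not tested.

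Under the other tests, normalizations and filters, Hk1, Hk2 and Hkdc1 kept their sign and stayed short of the threshold. Gckr passed by edgeR's exact test (-1.69, adjusted p = 0.00467), and its log2 fold change was -0.28 on the unfiltered log2(TPM + 1) scale, where a pseudocount of 1 exceeds its level. It had no value with at least 10 counts in every library or in the filtered TPM fits, and Hk3 had none in any filtered fit.

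Counts of higher and lower genes were 613 and 709 by DESeq2, 756 and 1022 by the exact test, 67 and 125 with no filter, 32 and 43 on log2(TPM + 1), 11 and 16 on log2(TPM + 0.1), and 2 and 0 on unfiltered log2(TPM + 1). Leaving out 1 library gave 159 to 1152 higher genes and 214 to 1213 lower genes, the most without control library 2. The hexokinase TPM sum ranged from -6.13% to 49.5% relative to the controls, the highest without control library 2.

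The 8 genes of the lists that passed kept their sign under the same alternatives. All 8 missed the threshold on unfiltered log2(TPM + 1) and on log2(TPM + 0.1), all but Slc2a5 on filtered log2(TPM + 1), and all but Slc2a5 and Txnip with no filter on counts. Pfkm and Pfkfb4 also missed it with no normalization factors, and Gnpnat1 with at least 10 counts in every library.

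Median log2 fold changes of the lists were recomputed under alternatives chosen after seeing the data. Leaving out each library gave -0.11 to 0.27 for the transporters, -0.18 to -0.061 for the glucose 6-phosphatase system, 0.011 to 0.092 for other sugar kinases, -0.24 to 0.28 for glycolysis, 0.072 to 0.29 for other fates of glucose 6-phosphate and -0.11 to 0.047 for docking and regulation. The filtered TPM fits gave 0.0042 and 0.0034 for the glucose 6-phosphatase system and 0.110 and 0.114 for other sugar kinases, whose median was 0.058 with at least 10 counts in every library. The cause was not tested.
No paired analysis was run, since the groups share no replicate numbers and no source used here states a pairing of libraries.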
